A study of Mus musculus with 2 samples.

Results

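Nuclei with many and with few replication-dependent histone transcripts were compared within the in situ polyadenylated single-nucleus library of C2C12 cells, a mouse myoblast line. All 1335 barcodes with over 750 UMIs (unique molecular identifiers, which count captured molecules) in the kallisto matrix were ordered by the percentage of UMIs in 64 histone genes of the H1, H2A, H2B, H3 and H4 families. The 25% with the highest share, 333 nuclei, are called histone-rich, and the 25% with the lowest share, 333 nuclei, are called histone-poor. The nuclei between them, 335 and 334, are called the second and the third group. The denominator of the share left out 5 genes, Rn18s-rs5, Lars2, Mir6236, AY036118 and ENSMUSG00002075551. The nuclei were thus chosen by their measured histone share, and values of the ranked histone genes are given as a description.

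The cells were collected near confluence and their nuclei were fixed in methanol. For the first library the nuclei were warmed with yPAP, a yeast enzyme that puts a poly(A) tail on RNAs lacking one and so makes them visible to oligo(dT) priming. For the other, standard library, the nuclei had neither the enzyme nor the warm incubation. That library held 1123 nuclei, so the members of the 2 ends of the ranking were 666 of 2458 nuclei in the series. No barcode was shared by nuclei of both libraries (0). With 1 library there is no replicate, nuclei are not replicates of a condition, and every interval below is a 95% interval that covers counting error only.

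Replication-dependent histone genes supply the histones that package newly made DNA, and their transcripts accumulate in S phase. Their mRNAs end in a conserved stem-loop in place of a poly(A) tail, and the stem-loop is bound by SLBP, which guides their processing, translation and decay. Libraries primed on poly(A) tails therefore see little of them, and other RNAs without a tail, such as snoRNAs and the RNase P RNA, share that property.

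The stem-loop is what sets mRNAs of this class apart from tailed mRNAs, so that of 1 or 2 genes of each family is shown first, with the 3 marker genes H2ac8, H1f2 and H4c4 among them and with H2ax, a variant histone gene outside the ranking. Each sequence was read from the GENCODE M39 transcript (GRCm39), 5′ to 3′, with the 16-base stem-loop in capitals and the position of the capitals given with its strand.
H1f3 (chr13:23739961-23739976, +): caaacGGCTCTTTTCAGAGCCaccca
H1f2 (chr13:23923495-23923510, +): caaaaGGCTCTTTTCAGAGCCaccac
H2ac8 (chr13:23754842-23754857, -): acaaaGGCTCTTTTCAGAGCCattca
H2bc9 (chr13:23727098-23727113, -): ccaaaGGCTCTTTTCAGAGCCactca
H3c3 (chr13:23929030-23929045, -): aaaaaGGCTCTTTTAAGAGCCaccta
H4c4 (chr13:23765933-23765948, +): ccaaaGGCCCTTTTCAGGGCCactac
H2ax (chr9:44246537-44246552, +): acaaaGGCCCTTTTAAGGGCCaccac
The pattern searched, on the transcript's own strand alone, was GG, any 2 bases, CTTTT, any 1 base, AG, any 2 bases and CC. It was found in 41 of 64 ranked genes and in 88 of 21770 protein-coding genes, or 0.404%. A match describes these letters only. A missing match does not show that a gene lacks the stem-loop, since sequence past the end of the annotated transcript was not searched. Some ranked genes without a match have short annotations, such as H4c12 (chr13:21934364-21934675).

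The histone share was graded over the nuclei and had no gap at either limit. The last nucleus inside the histone-poor group had 0.952% and the first outside it 0.962%, while the first inside the histone-rich group and the last outside it both had 3.17%. Pooled over nuclei, the share was 0.484% (0.449 to 0.522) in histone-poor nuclei, 1.43% in the second group, 2.51% in the third group and 4.54% (4.43 to 4.65) in histone-rich nuclei. The median nucleus held 2 histone UMIs in the poor group and 14 in the rich group. All 64 nuclei without a histone UMI were in the histone-poor group. Barcodes with 1 to 100 UMIs, which hold free RNA, had a pooled share of 2.40% (2.37 to 2.44), above the second group and below the third. Pooled standard nuclei had 0.353%.

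**Figure D1:**
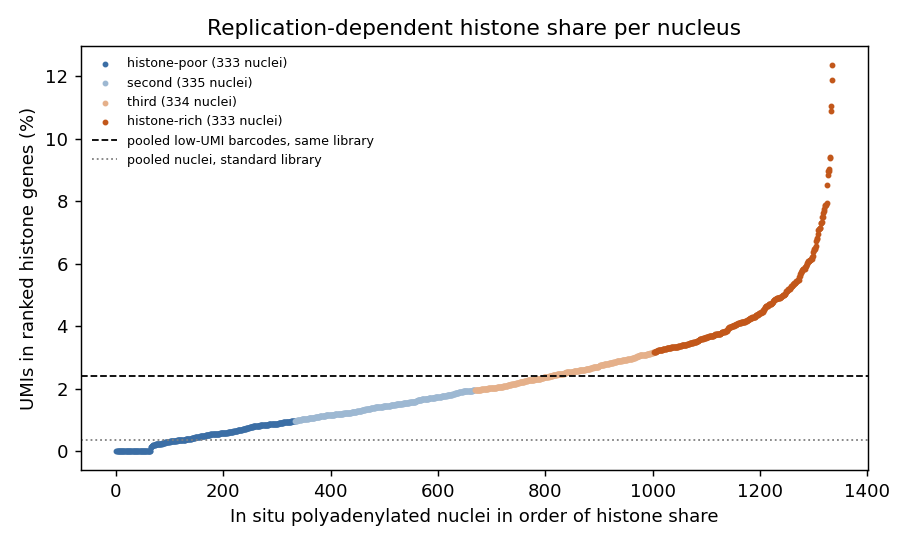
Percentage of UMIs in the 64 ranked histone genes (y axis) in each of the 1335 in situ polyadenylated nuclei, in order of that share (x axis), coloured by group. The share climbs without a step up to 12.4%, and the histone-poor nuclei lie below the dashed line of the low-UMI barcodes at 2.40% while the histone-rich nuclei lie above it.

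Median depth was 1048 UMIs per histone-poor and 1098 per histone-rich nucleus, with medians of 339 and 316 UMIs in the denominator. The deeper nuclei differed more, with upper quartiles of 1323 and 1676 UMIs and totals of 420900 and 517045. Other abundant RNAs moved with the ranking. Rn18s-rs5, an 18S rRNA locus, made up 51.5% of UMIs in histone-poor and 44.2% in histone-rich nuclei. ENSMUSG00002075551, annotated as a miRNA gene, made up 7.54% and 20.9%, and it was detected in 84 histone-poor and 153 histone-rich nuclei. Its part in the results was not tested beyond the values given for nuclei with and without it. In the STAR matrix, Peak1, Zfp791 and ENSMUSG00002076173, counted at rRNA-like sequence, took 43.4% and 57.8% of UMIs, and these 3 genes were left out of the STAR totals.

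Linker histone genes carried most of the ranked signal. The 5 H1 genes, whose products bind linker DNA between nucleosomes, held 68.5% of all histone UMIs, H2A genes 11.7%, H2B genes 9.04%, H3 genes 5.94% and H4 genes 4.75%. Along the ranking, the share of histone UMIs taken by H2A genes went from 6.93% to 15.3%, that of H2B genes from 5.49% to 10.1% and that of H3 genes from 3.41% to 7.58%, while that of H4 genes went from 5.94% to 4.97%, and H1 genes, at 78.2% in histone-poor nuclei, took less in histone-rich nuclei. The log2 ratio of the share, rich over poor, was 2.89 for H1, 4.36 for H2A, 4.11 for H2B, 4.38 for H3 and 2.97 for H4. The nuclei were sorted by the sum of these same UMIs, which can itself shape the family shares and ratios. Differences between families were not tested. Of 50 ranked genes with at least 20 UMIs in the library, all 50 were higher in histone-rich nuclei, which the ranking itself favours, and 12 had 0 UMIs in histone-poor nuclei. Another 6 of the 64 genes had 0 UMIs in all nuclei, and 8 had 1 to 19.

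H1f3, the most abundant ranked gene, had 199, 652, 1174 and 1662 UMIs in the 4 groups from poor to rich and was detected in 127 histone-poor and 325 histone-rich nuclei. H1f4 had 173 and 1032 UMIs in the outer groups and H1f2 had 82 and 566. H1f3 thus reached 97.6% of histone-rich nuclei, H1f4 88.6% and H1f2 70.0%, and H1f4 was also the one most seen without the enzyme, with 1700 UMIs in standard nuclei.

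Core histone genes were sparse by comparison. H2ac15 had 14 and 187 UMIs in histone-poor and histone-rich nuclei, H2bc11 had 3 and 102, and H2bc9 had 3 and 115. H3c3 had 4 and 80 UMIs and H3c1 had 6 and 81. H4c14, on chromosome 3, had 13 and 85, H4c6 had 7 and 36 and the marker H4c4 had 5 and 27. None of these genes reached 20% of the histone-rich nuclei, although 177 of the 333 held a UMI of some H2B gene and 166 held one of some H2A gene.

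UMIs assigned to single H2A genes lay in few nuclei, although the family as a whole was found in 166 histone-rich nuclei. The marker H2ac8 had 108 UMIs in 18 histone-rich nuclei, or 6.00 per nucleus that held any, and H2ac24 had 111 UMIs in 14 nuclei, or 7.94. H2ac7 was the extreme, with 44 UMIs in 3 nuclei and up to 35.3 in 1 of them. These 2 were picked after their values were seen, as was the count that follows. Of the 50 genes, 9 had at least 5 UMIs per histone-rich nucleus with any, and 8 of these were H2A genes, the other being H1f3. By contrast, H4c14 had 1.31 UMIs per nucleus with any. H2A genes are near-identical to each other, and 38.0% of the H2A entries were not whole numbers (5.57% for H4), since reads shared by several genes were split in the deposited estimates. The H2A sum is therefore firmer than any of its genes.

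**Figure D2:**
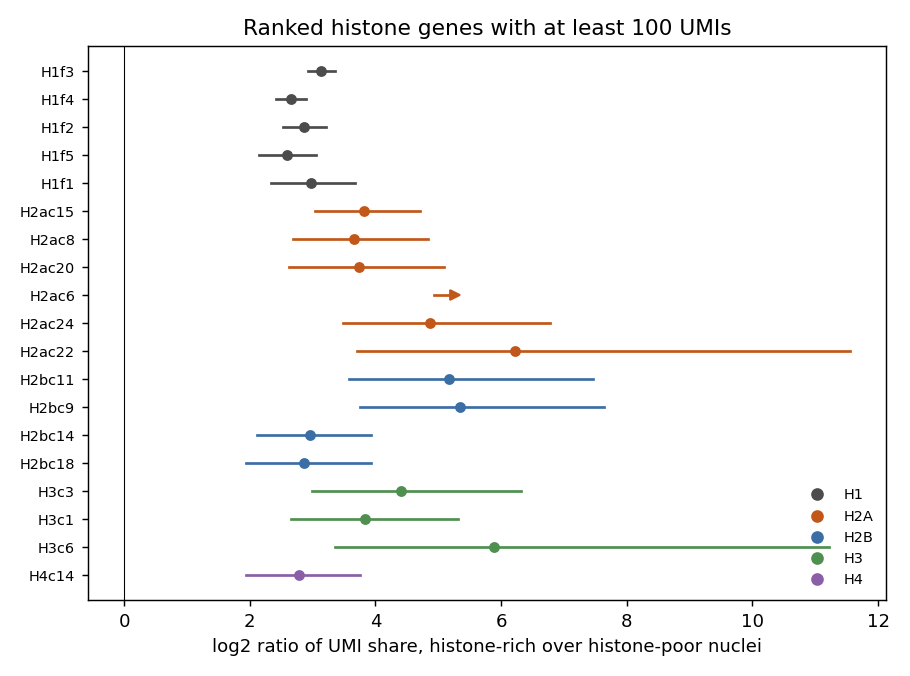
The log2 ratio of UMI share, histone-rich over histone-poor nuclei (x axis), for the 19 ranked histone genes with at least 100 UMIs, with 95% counting intervals and coloured by family. H1 genes lie between 2.59 and 3.14, while H2A, H2B and H3 genes spread wider, and the triangle marks H2ac6, a lower bound because it had 0 UMIs in histone-poor nuclei.

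As a description within the ranked genes alone, nuclei were ranked again by some of these genes and read in the others. Ranking by H1, H2A and H2B genes kept 87.7% of histone-rich and 93.4% of histone-poor nuclei, so it is no separate check. Ranked by H1, H2A and H2B genes, nuclei of the lowest and highest 25% had 0.0660% and 0.433% of UMIs in H3 and H4 genes, a log2 ratio of 2.71 (2.39 to 3.05). Ranked by H3 and H4 genes, they had 1.68% and 2.80% in H1, H2A and H2B genes, a log2 ratio of 0.74 (0.66 to 0.82). In that second ranking 835 nuclei had no UMI to rank by, so the lowest group was filled by barcode order. Ranking by genes of the chromosome 13 clusters gave 0.0397% and 0.183% in the chromosome 3 genes, a log2 ratio of 2.21. The reverse ranking, with 1008 nuclei at 0, gave 1.90% and 2.56% in the chromosome 13 genes, a log2 ratio of 0.43 (0.36 to 0.50). The families shared the denominator and the depth of each nucleus. Across the 1335 nuclei the shares of 2 families correlated weakly, with Pearson's r from 0.109 to 0.223 over 10 pairs, which in counts this sparse is no finding. STAR counts of the same nuclei gave histone shares of 0.142% and 0.570%, a log2 ratio of 2.01, over the same reads counted by another route.

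Outside the ranked genes the contrast was modest. Of 965 genes with at least 50 UMIs in the outer groups together, 116 (12.0%) were at least 1.5-fold higher and 86 (8.91%) at least 1.5-fold lower in histone-rich nuclei by CPM, the UMIs of a gene scaled to an equal total of UMIs outside the ranked and the 5 left-out genes. The balance depended on the denominator, with 95 genes higher and 109 lower when histone UMIs were kept in it and 92 higher and 115 lower when Malat1 was left out, the latter an alternative chosen after seeing the data. The median log2 ratio was 0.02, and for 83 of the 116 and 57 of the 86 genes the interval left out 0. By STAR, with ratios given relative to the protein-coding median of -0.23, 155 (10.7%) of 1449 genes with at least 200 UMIs were higher and 34 (2.35%) lower. Without that centring 78 were higher and 176 lower. Of the 116 and 86 genes, 63 and 69 were also measured by STAR, of which 62 and 65 lay on the same side of 0 there and 26 and 14 were past 1.5-fold. The 2 routes count the same molecules and are no independent evidence.

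H2ax led all measured genes. It encodes H2A.X, the variant that is phosphorylated at DNA breaks, and its transcript can end either in the stem-loop printed above or in a poly(A) tail. It had 61, 215, 298 and 457 UMIs in the 4 groups, so each group was above the one before, and it was detected in 31 histone-poor and 113 histone-rich nuclei. The log2 ratio of CPM was 3.04 (2.66 to 3.45) by kallisto and 1.95 (1.53 to 2.39) by STAR. Its CPM in low-UMI barcodes, 1444, lay between those of the histone-poor and histone-rich nuclei. In the standard library, split by the same rule, H2ax had 7 and 11 UMIs.

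Besides H2ax, 4 histone genes with the stem-loop fell outside the ranking because of their symbols, and they were named with their values in view. H3f4 had 1 and 1 UMIs and H1f6 had 0 and 1, too few to compare. H4f16, named H4c16 in M39, had 26 and 50 UMIs, a log2 ratio of 1.08 (0.37 to 1.82). H2bu2 had 0 and 7 UMIs, a log2 ratio of at least 1.36 against a floor of 3 UMIs in the group. Reads that H4f16 and H2bu2 share with ranked genes were not examined. Among the 965 genes, 8 held the stem-loop pattern. The 6 that are not histone genes, Ankrd17, Cdr2l, Epb41l1, Kmt2c, Mafg and Taf1, had log2 ratios from -0.90 to -0.06. The pattern was searched over the whole transcript, so a match need not lie at its end. Below the minimum of 50 UMIs, other genes with the pattern lay on both sides. Agrn, with 3 and 8 UMIs, was at 1.55 and Notch1, with 7 and 3, at -1.08, both with intervals that held 0.

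Replication-independent histone genes, which are used outside S phase too, were also higher as a list that includes H2ax. Their summed log2 ratio was 1.87 (1.65 to 2.09), and 5 of 7 measured members were at least 1.5-fold higher and 0 lower, where 22.4% and 16.1% of all genes with at least 10 UMIs were. The sum was 0.82 (0.68 to 0.96) by STAR and 0.19 (-0.02 to 0.41) in the standard library. H2ax, with its split reads included, supplied 457 of the 736 UMIs of histone-rich nuclei. Without H2ax, an alternative chosen after seeing the data, replication-independent histone genes were at 0.93 (0.65 to 1.22). H1f0, the linker histone of arrested and differentiating cells, had 22 and 66 UMIs and a log2 ratio of 1.72 (1.01 to 2.49). H3f3b, one of the genes for H3.3, had 33 and 59 UMIs, a log2 ratio of 0.98 (0.34 to 1.64). H1f0 and H3f3b were on the same side by STAR, at 1.18 and 0.94.

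**Figure D3:**
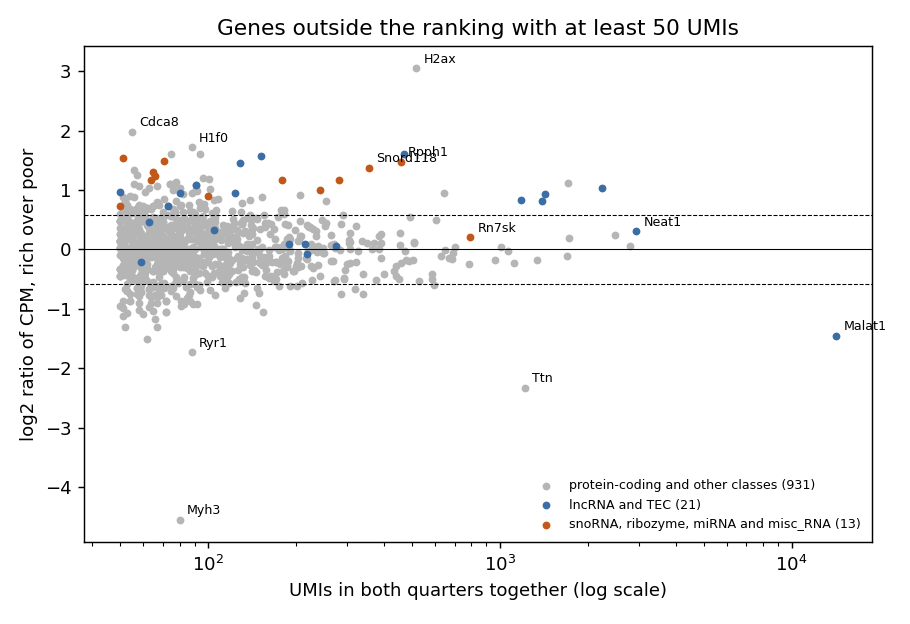
Each point is 1 of the 965 genes outside the ranking, placed by its UMIs in both outer groups (x axis, log scale) and its log2 ratio of CPM, histone-rich over histone-poor nuclei (y axis), with dashed lines at 1.5-fold. H2ax stands highest at 3.04 and Myh3, Ttn and Malat1 stand low, while the snoRNA, ribozyme, miRNA and misc_RNA genes lie above 0.

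S phase genes were higher in histone-rich nuclei by a small margin. The list of 43 genes for replication origins, forks and nucleotide supply summed to 447, 522, 552 and 541 UMIs in the 4 groups, a log2 ratio of 0.41 (0.23 to 0.60). Of 26 measured members 8 (30.8%) were at least 1.5-fold higher and 3 (11.5%) lower, with a median log2 ratio of 0.40, against a median of 0.06 and the 22.4% and 16.1% above for all genes with at least 10 UMIs. By STAR, 12 of 42 were higher and 0 lower, where 20.5% and 8.59% of genes were. The sum relative to the protein-coding median was 0.43 (0.34 to 0.52).

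Clspn, the checkpoint adaptor claspin that travels with the fork, had 32, 45, 50 and 59 UMIs, a log2 ratio of 1.02 (0.38 to 1.69) and 0.90 (0.49 to 1.32) by STAR. Rfc2, a subunit of the clamp loader, had 28 and 52 UMIs, a log2 ratio of 1.03 (0.34 to 1.75), and was picked after its values were seen. Atad2, a chromatin ATPase and the most abundant member, had 100 and 106 UMIs, a log2 ratio of 0.22 (-0.19 to 0.63). The usual S phase markers were too shallow to place by kallisto. Pcna, the sliding clamp, had 6 and 6 UMIs, Mcm5, a helicase subunit, had 12 and 6, and Slbp, the stem-loop binding protein, had 3 and 4. Ccne1 and Ccne2, the cyclins of S phase entry, had 0 and 3 UMIs and 3 and 0 UMIs. By kallisto, differences in these 5 genes were not detectable at this depth. STAR counts were 19 and 25 for Pcna, 34 and 38 for Mcm5, 13 and 13 for Ccne1 and 28 and 20 for Ccne2, all with intervals that held 0. Slbp had 16 and 34 STAR counts. Its log2 ratio there was 1.04 (0.14 to 1.99) relative to the protein-coding median and 0.81 without that centring.

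G2/M genes were also higher, and no test compared them with S phase genes. The list of 55 genes for chromosome condensation, spindle and cytokinesis summed to 1019, 1315, 1451 and 1284 UMIs, a log2 ratio of 0.47 (0.35 to 0.59), whose interval overlaps that of S phase genes. Of 42 measured members 20 (47.6%) were at least 1.5-fold higher and 1 (2.38%) lower, beside 22.4% and 16.1% of all genes. By STAR 24 of 55 were higher and 0 lower, beside 20.5% and 8.59%. Cdca8, borealin of the chromosomal passenger complex, had the second-highest ratio of the 965 genes, with 12, 35, 37 and 43 UMIs and a log2 ratio of 1.98 (1.03 to 3.04). Top2a, which untangles sister chromatids, had 64 and 83 UMIs, a log2 ratio of 0.51 (0.03 to 1.01). Cenpe, a kinetochore motor, was at 0.59 (0.11 to 1.07) and Mki67, which coats mitotic chromosomes, at 0.31 (-0.07 to 0.69). Ccnb1, cyclin B1, had 1 and 6 UMIs. Because both lists were higher, the nuclei are named here by their histone share and not by a cell cycle phase.

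The G2/M difference lay between the histone-poor nuclei and all others. With every nucleus thinned to 150 UMIs outside the ranked genes, 58.7% of histone-poor nuclei (53.0 to 64.1) held a G2/M UMI, against 74.8% (69.7 to 79.5) in the second group, 76.3% in the third and 76.5% (71.3 to 81.1) in histone-rich nuclei. Thinning left out 16, 21, 18 and 27 nuclei as too shallow, and without it the shares were 77.8%, 86.3%, 89.5% and 88.3%. For S phase genes the thinned shares were 36.9% (31.6 to 42.5), 39.5%, 43.7% and 43.5% (37.8 to 49.2), and the outer intervals overlap. The free RNA of low-UMI barcodes held G2/M genes at a CPM of 8286 and S phase genes at 3519, which in both cases lay between histone-poor (7359 and 3231) and histone-rich nuclei (10209 and 4302).

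The standard library gave ratios of the same size for both lists. Its 1123 nuclei were split by the same rule into outer groups of 280, in which 233 histone-poor nuclei had no histone UMI and the shares were 0.0229% and 0.873%. S phase genes had a log2 ratio of 0.41 (0.27 to 0.55) and G2/M genes 0.55 (0.47 to 0.63). Of the 3416 histone UMIs in standard nuclei 1700 were of H1f4. H1 genes held 0.292% of UMIs there and H4 genes 0.00217%, so the ranked genes weighed differently. The histone UMIs of that library were primed without yPAP, and its ratios describe another 1 library.

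Histone mRNA and histone locus factors were higher by the kallisto sum and less so by STAR, while histone chaperone genes differed little. The factors summed to a log2 ratio of 0.41 (0.15 to 0.67). Of 9 members 4 (44.4%) were higher and 0 lower, beside 22.4% and 16.1% of all genes with at least 10 UMIs. By STAR the sum was 0.16 (0.02 to 0.29) relative to the protein-coding median and -0.072 without that centring. There 2 of 15 were higher and 2 lower (13.3% each), beside 20.5% and 8.59% of genes. Srrt, which links the cap to RNA processing, had 58 and 59 UMIs, and Sympk, a scaffold of the cleavage complex, had 46 and 57. Histone chaperone genes had a summed log2 ratio of 0.11 (-0.10 to 0.31), with 1 of 13 (7.69%) higher and 0 lower, beside 22.4% and 16.1%. Atrx, which deposits H3.3 in heterochromatin, had 172 and 134 UMIs, a log2 ratio of -0.22 (-0.56 to 0.11) and -0.49 (-0.68 to -0.30) by STAR. Ssrp1, a subunit of the FACT complex, had 38 and 36. G1 and cell cycle exit genes summed to -0.13 (-0.48 to 0.22), with 3 of 9 higher and 3 lower (33.3% each), beside 22.4% and 16.1%. Ccnd1, cyclin D1, had 35 and 30 UMIs, Mdm2 had 40 and 24, and Cdkn1a, the p21 inhibitor, had 8 and 5.

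**Figure D4:**
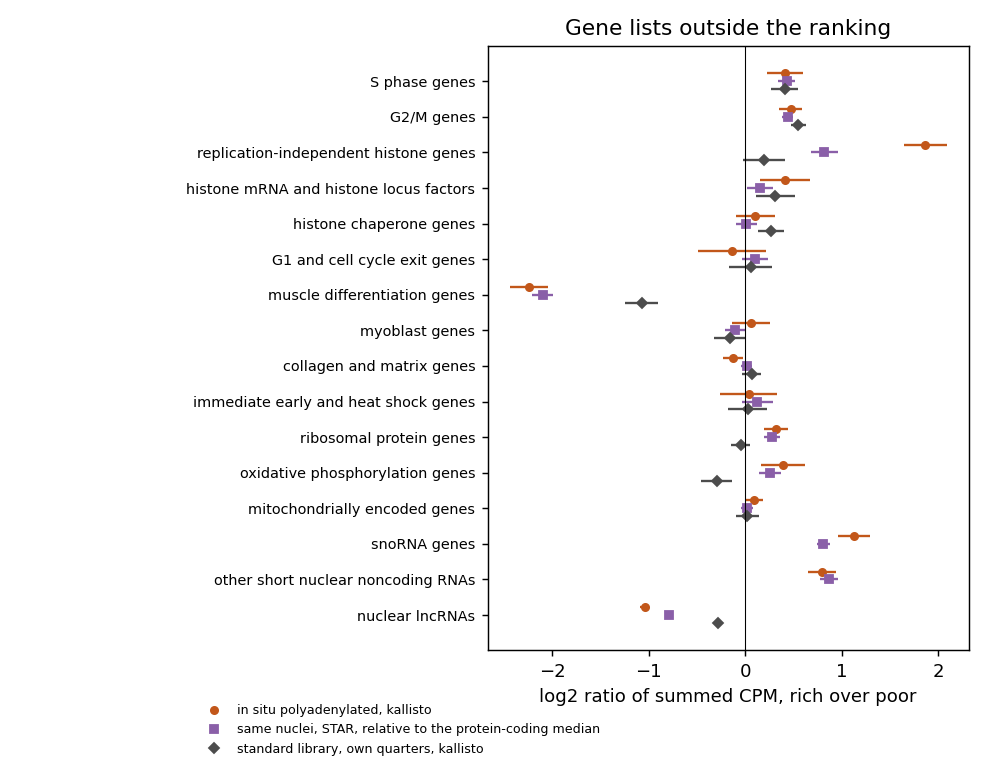
Summed log2 ratio of CPM, histone-rich over histone-poor nuclei (x axis), for 16 gene lists with 95% counting intervals, by kallisto, by STAR relative to the protein-coding median, and in the outer groups of the standard library where a list had at least 50 UMIs. S phase and G2/M genes sit between 0.41 and 0.55 in all 3, muscle differentiation genes are low in all 3, and snoRNA genes are high in the in situ polyadenylated library.

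Muscle differentiation genes were lower in histone-rich nuclei. The list summed to 1285, 612, 382 and 247 UMIs in the 4 groups, a log2 ratio of -2.24 (-2.44 to -2.04). Of 9 measured members 7 were at least 1.5-fold lower and 0 higher, beside 16.1% and 22.4% of all genes with at least 10 UMIs. Ttn, the giant spring protein of the sarcomere, had 1032, 507, 309 and 187 UMIs, a log2 ratio of -2.33 (-2.56 to -2.10). Myh3, the embryonic myosin heavy chain, had 77, 13, 6 and 3, a log2 ratio of -4.54 (-6.85 to -2.94). Ryr1, the calcium release channel, had 69 and 19. STAR counts gave -2.22 for Ttn, -3.97 for Myh3 and -1.09 for Ryr1, and in the standard library the list stood at -1.07 (-1.24 to -0.91). Myog, myogenin, had 2 and 0 UMIs and Myod1 5 and 1, too few to compare.

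This difference in UMIs was not spread evenly over the nuclei. At least 1 Ttn UMI was found in 82 histone-poor and 79 histone-rich nuclei, or 24.6% and 23.7%, but 31 of the former and 6 of the latter held at least 5. The 10 nuclei with the most Ttn held 663 of the 1032 UMIs of the histone-poor group, or 64.2%, with up to 107 in 1 nucleus. All 77 Myh3 UMIs of that group lay in 10 nuclei. Low-UMI barcodes held Ttn at a CPM of 1061, below the 1487 of histone-rich and the 7455 of histone-poor nuclei. Few nuclei rich in sarcomere transcripts thus set the sum, and fewer such nuclei cannot be told apart from less RNA in each.

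Without the nuclei that held any UMI of the muscle list, an alternative chosen after seeing the data, 849 nuclei were ranked again. S phase genes were then at 0.42 and G2/M genes at 0.37, close to the values with them, while Ryr1 went to 0.44 (-1.10 to 2.02). In the main ranking, myoblast genes summed to 0.06 (-0.14 to 0.25). Of 7 members 2 (28.6%) were higher and 1 (14.3%) lower, beside 22.4% and 16.1% of all genes with at least 10 UMIs. Des, desmin, had 94 and 86 UMIs and Vim, vimentin, had 233 and 222, so these genes of the undifferentiated line were present at both ends. Collagen and matrix genes summed to -0.13 (-0.23 to -0.02) and to 0.01 by STAR, Col1a2 had 562 and 502 UMIs and Col5a1 had 191 and 175. Immediate early and heat shock genes summed to 0.03 (-0.26 to 0.33), with 41 and 37 UMIs of Jun and 27 and 16 of Hsp90aa1.

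Malat1, a nuclear lncRNA of splicing speckles and the most abundant gene of the readout, was lower. It had 10672, 7067, 4516 and 3548 UMIs in the 4 groups, a log2 ratio of -1.45 (-1.51 to -1.40) by kallisto and -1.39 by STAR. It was detected in 328 and 325 nuclei, so its level and not its presence differed. The CPM of 60412 in low-UMI barcodes lay below that of histone-poor nuclei, 77095, and above that of histone-rich nuclei, 28212. The standard library gave -0.28 (-0.30 to -0.25). Neat1, the scaffold of paraspeckles from the neighbouring locus, had 1381 and 1554 UMIs and a log2 ratio of 0.31 (0.20 to 0.41), or 0.20 (0.16 to 0.24) by STAR relative to the protein-coding median and -0.029 without that centring. In the standard library Neat1 lay on the other side, at -0.58 (-0.71 to -0.46). The list of nuclear lncRNAs was at -1.04 in sum, with Malat1 holding most of its UMIs, and had a median of 0.33. Without Malat1 in the denominator, S phase genes were at 0.34, G2/M genes at 0.40 and snoRNA genes at 1.05.

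The snoRNA genes and both measured ribozymes, which lack a tail, were higher. As given above, the 18S rRNA locus Rn18s-rs5 took a smaller share of kallisto UMIs. The 3 rRNA-like genes of the STAR matrix took a larger share of STAR UMIs, 43.4% and 57.8%. Both are shares of all UMIs and not CPM, so they are not on the scale of the ratios below. Of 8 snoRNA-class genes with at least 50 UMIs all 8 were at least 1.5-fold higher, as were 2 of 2 ribozymes, while 90 of 922 protein-coding genes were higher and 84 lower. Of 6 TEC genes, transcripts still to be verified whose ends are not known, 5 were higher. The list of snoRNA genes summed to 455 and 904 UMIs, a log2 ratio of 1.13 (0.96 to 1.29). Of 20 measured members 17 were higher and 0 lower, beside 22.4% and 16.1% of all genes with at least 10 UMIs. Snord118, the U8 snoRNA of large-subunit rRNA processing, had 106, 171, 221 and 250 UMIs, a log2 ratio of 1.38 (1.04 to 1.72). Snord13 (U13) was at 1.16 (0.70 to 1.64) and Snord17 at 1.16 (0.80 to 1.54). The free RNA of low-UMI barcodes held snoRNA genes at a CPM of 26485, above the histone-poor (3287) and the histone-rich nuclei (7188).

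Rpph1, the RNA subunit of RNase P and 1 of the 2 ribozymes above, had 130, 169, 224 and 328 UMIs, a log2 ratio of 1.47 (1.18 to 1.78). Rmrp, its relative in RNase MRP, had 41, 77, 118 and 111 UMIs, a log2 ratio of 1.58 (1.05 to 2.13). The counted entry of Rmrp is classed as a lncRNA, so Rmrp is not the other of the 2 ribozymes. Gm25128, annotated as a snoRNA, was at 1.54, ENSMUSG00002075501, annotated as a miRNA, at 1.49 and Gm42826, a TEC gene, at 1.61. Rn7sk, the 7SK RNA that holds the elongation factor P-TEFb inactive, differed by route and by measure. It had 387, 266, 323 and 406 kallisto UMIs and a log2 ratio of 0.21 (0.00 to 0.41), but 0.55 (0.31 to 0.79) by STAR. It was detected in 67 histone-poor and 100 histone-rich nuclei, and after thinning in 13.2% (9.72 to 17.5) and 22.5% (18.0 to 27.6). Up to 171 UMIs of Rn7sk lay in 1 nucleus of the library, and without the 5% of nuclei with the most UMIs the ratio was -0.10 (-0.32 to 0.12). The list of other short nuclear noncoding RNAs summed to 0.80 (0.65 to 0.94), with 5 of 6 higher beside 22.4% of all genes. With groups formed within 4 strata of the rRNA-like STAR share, an alternative chosen after seeing the data, snoRNA genes were at 0.35, Rn7sk at -0.50 (-0.72 to -0.29), S phase genes at 0.56 and G2/M genes at 0.78.

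**Figure D5:**
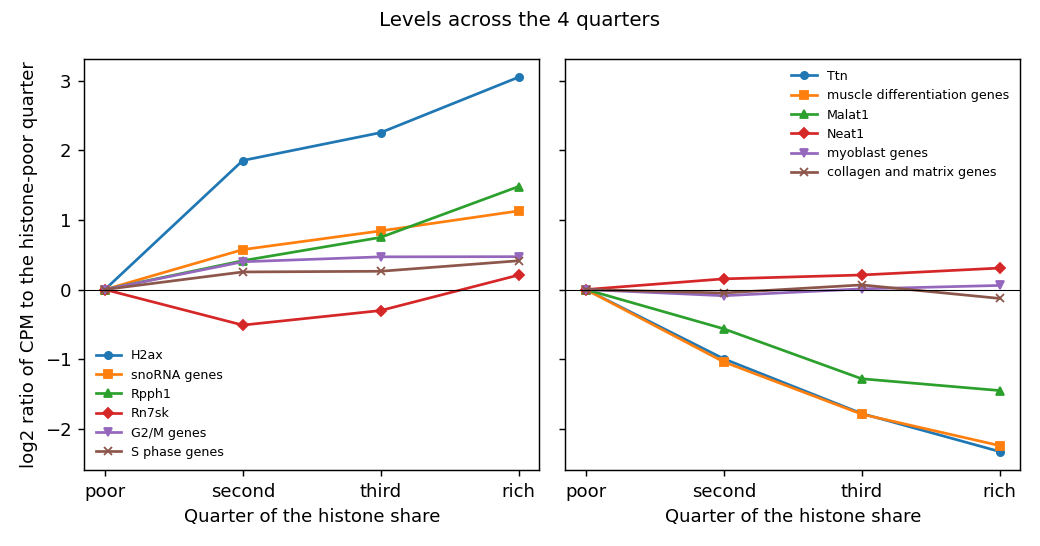
Log2 ratio of CPM to the histone-poor group (y axis) in the 4 groups of nuclei ordered by histone share (x axis), for genes and lists at or above the histone-poor level at the rich end (left) and for muscle, myoblast and matrix genes, Malat1 and Neat1 (right). H2ax, snoRNA genes and Rpph1 climb from group to group, G2/M genes level off from the second group on, and Ttn and Malat1 descend.

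The presence of ENSMUSG00002075551 split the nuclei into 828 without it and 507 with it. Ranked anew among those without it, 207 against 207 nuclei, S phase genes had a log2 ratio of 0.56, G2/M genes 0.53, snoRNA genes 1.12 and muscle differentiation genes -2.96. Among those with it, 126 against 126 nuclei, the values were 0.12, 0.48, 0.77 and -1.91, so the S phase difference was within counting error there (-0.20 to 0.43).

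Other genes with extreme ratios were of mixed kind. Higher were Yars, a tyrosyl-tRNA synthetase gene, at 1.60 (0.92 to 2.33) and the pseudogene H2af-ps2 at 1.60 (0.84 to 2.41). By STAR they stood at 0.59 and 1.46, and reads shared with other genes were not examined for H2af-ps2. Lower were Mtss1 (-1.51), Ppig (-1.31), Arid4b (-1.30), Zbtb20 (-1.17), Zbtb38 (-1.12) and Tanc2 (-1.08), each with 36 to 49 UMIs in histone-poor nuclei. By STAR, Arid4b stood at -0.82, Zbtb38 at -0.56, Tanc2 at -0.46, Mtss1 at -0.30, Ppig at -0.29 and Zbtb20 at -0.06. The 90 higher protein-coding genes were shorter, with a median span of 20143 nt and 54.6% GC in the transcript, than the 84 lower ones at 80960 nt and 47.8%, and the 922 tested had 40417 nt and 50.7%.

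By STAR, 9 of the 10 highest genes had almost no kallisto UMIs. Zbtb10 had 9581 and 23105 STAR counts but 7 and 14 kallisto UMIs, and Prickle2 had 2151 and 5094 against 0 and 0. With 4632415L05Rik, Ndrg4, Emx2os, Ltf, Mag, Mcoln2 and Tns4 they had relative log2 ratios from 1.19 to 1.56, and H2ax was the other of the 10. All 9 lay above the 1.01 of the 3 rRNA-like genes, and whether they hold rRNA-like sequence was not tested. These 9 were kept in the STAR totals and are among the 155 genes counted as higher by STAR. At the low end, STAR named Lincmd1 (-1.91), the host of muscle miRNAs, Slc1a3 (-1.84), Dclk1 (-1.58), Ell2 (-1.12), Ankrd12 (-0.94), Mef2a (-0.91), a muscle transcription factor, and Zfp106 (-0.86), beside Ttn, Malat1 and Ryr1. Of these, Lincmd1, Slc1a3, Dclk1 and Ell2 had at most 11 kallisto UMIs in histone-poor nuclei.

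Genes of translation and respiration were slightly higher by the kallisto sums. Ribosomal protein genes summed to a log2 ratio of 0.32 (0.19 to 0.45), with 19 of 43 (44.2%) higher and 3 lower, and oxidative phosphorylation genes to 0.39 (0.17 to 0.62), with 8 of 18 (44.4%) higher and 2 lower, beside 22.4% and 16.1% of all genes. By STAR, 15 of 70 ribosomal protein genes (21.4%) were higher and 1 lower, and 15 of 59 oxidative phosphorylation genes (25.4%) were higher and 7 lower, near the 20.5% of all genes that were higher. The STAR sums were 0.28 (0.19 to 0.36) and 0.26 (0.14 to 0.37) relative to the protein-coding median, and 0.049 and 0.029 without that centring. Rpl8 had 77 and 106 UMIs and Rpl4 85 and 66, so members of 1 list lay on both sides. Cyc1, cytochrome c1, had 21 and 27 UMIs and Atp5b, an ATP synthase subunit, 33 and 32. In the standard library the lists were at -0.05 (-0.15 to 0.05) and -0.30 (-0.46 to -0.13). Mitochondrially encoded genes summed to 0.09 (-0.01 to 0.18), with mt-Rnr2 at 1434 and 1363 UMIs and mt-Rnr1 at 249 and 223.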

How the data were processed

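Per the labels and the study's methods, 2 single-nucleus libraries (Chromium v3) were trimmed with cutadapt 3.4. The deposited kallisto 0.48.0 and bustools 0.41.0 matrices hold estimated counts (UMIs by gene in each barcode), and the deposited STAR 2.7.10a matrices hold UMI counts, on GRCm39, neither normalized by the authors. The choice of barcodes for the STAR matrix was not given in the sources used here.

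Barcodes with over 750 kallisto UMIs were kept (0 reached 5% mitochondrial UMIs) and doublets were not called. Kallisto UMIs were summed per group and rounded. STAR counts existed for 330 histone-poor and 332 histone-rich nuclei. The 2 groups held 138422 and 125773 kallisto UMIs in the readout denominator, which leaves out the ranked histone genes. Log2 ratios carry exact conditional Poisson intervals and shares exact Clopper-Pearson intervals. A group with 0 UMIs was placed at 3 UMIs (the floor), and no ratio is given where both groups were at or under it. No test was made. The groups, gene lists, naming rule and alternatives were chosen with earlier results of these data known. Lists were read over members with at least 10 UMIs in both groups together. Named genes were the 10 highest and 10 lowest by kallisto (at least 50 UMIs) and by STAR (at least 200), the 2 most abundant members of each of 16 lists, 19 fixed genes and, of the ranked histones, the 3 markers and the 2 most abundant of each family. Others are said to be picked after their values were seen. Of 55414 genes, 54749 matched GENCODE M39 for class and position. Alternatives were the STAR matrix as readout or for ranking, other UMI, denominator and gene minima, thinning before ranking, removal of the deepest nuclei, ties, group size, mean shares, other denominators and scaling, ranking by some histone families, nuclei with or without ENSMUSG00002075551, and 4 added later. The ratio code was tested on simulated data. Python 3.11.15, NumPy 2.4.6, SciPy 1.17.1, pandas 2.3.3 and Matplotlib 3.10.9 were used.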

Additional observations from a re-analysis of the deposited data

How the results depend on the processing

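All 95 alternative values of the 5 main lists kept their sign. The balance of the gene counts turned, from 116 higher and 86 lower to more lower than higher, in the STAR matrix without centring, to 92 higher and 115 lower with Malat1 left out of the denominator and to 95 higher and 109 lower with histone UMIs kept in it. Values that moved beyond their counting interval, or counts by over 1.5 times, follow, and the cause was not tested unless the setting itself removes genes or nuclei. Read by the STAR matrix without centring, S phase genes had a log2 ratio of 0.20, G2/M genes 0.21, replication-independent histone genes 0.59 and snoRNA genes 0.58, with 279 genes higher in histone-rich nuclei and 744 genes lower, at 50 UMIs and with the protein-coding median at -0.23. Ranked by the STAR histone share they were 0.66, 0.69, 1.58 and 0.53, with 52 genes lower in histone-rich nuclei. With a minimum of 1500 UMIs (92 against 92 nuclei), G2/M genes were at 0.31, snoRNA genes at 1.41 and muscle differentiation genes at -1.61, with 65 genes higher and 34 lower. With at least 300 UMIs in the denominator, G2/M genes were at 0.60, replication-independent histone genes at 2.32 and snoRNA genes at 1.38. Thinned before ranking, replication-independent histone genes were at 1.51 and muscle differentiation genes at -1.84, which stood at -2.79 without the deepest 5% of nuclei. Larger groups of 445 nuclei gave replication-independent histone genes 1.52 and snoRNA genes 0.94, and mean shares over nuclei 1.501 and 0.92. Ranked by H3 and H4 genes, S phase genes were at 0.074, G2/M genes at 0.10, replication-independent histone genes at 0.80, snoRNA genes at 0.44 and muscle differentiation genes at -0.86, with 61 genes higher in histone-rich nuclei and 50 genes lower in histone-rich nuclei. Without ENSMUSG00002075551, muscle differentiation genes were at -2.96, with 70 genes higher and 53 lower. With it, S phase genes were at 0.12, replication-independent histone genes at 1.296, snoRNA genes at 0.77 and muscle differentiation genes at -1.91, with 31 higher and 31 lower. Gene minima of 20 and 100 UMIs gave 462 and 35 genes higher and 342 and 18 lower.

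Chosen after seeing the data, leaving out nuclei with muscle UMIs gave 51 genes higher in histone-rich nuclei and 40 genes lower in histone-rich nuclei. Strata of the rRNA-like share gave G2/M genes 0.78, replication-independent histone genes 1.55 and snoRNA genes 0.35, and replication-independent histone genes without H2ax were at 0.93. Of other lists 184 of 209 values and of single genes 1083 of 1182 kept their sign. The values that turned although their own interval left out 0, 3 for lists and 12 for genes, follow. By STAR, histone mRNA and histone locus factors were at -0.072 and Neat1 at -0.029. With a minimum of 1500 UMIs, collagen and matrix genes were at 0.077, Cenpe at -0.31 and Top2a at -0.19. Ranked by H3 and H4 genes, Cenpe was at -0.51, Zbtb20 at 0.65 and Zbtb38 at 0.31. With ENSMUSG00002075551, collagen and matrix genes were at 0.050, Rn7sk at -0.73 and Tanc2 at 0.34. Rn7sk was at -0.10 without the deepest nuclei, at -0.69 without nuclei with muscle UMIs and at -0.50 within strata, and Ryr1 at 0.44 without nuclei with muscle UMIs. No paired analysis was possible because 1 library holds all the nuclei compared. At a median of 316 to 339 UMIs per nucleus in the denominator, most single genes could not be placed, and free RNA, doublets and unnamed differences between nuclei were not modelled.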
